A study of Mus musculus with 9 samples.

Results

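Imprinted genes are expressed mainly from a single parental copy. The choice is set in the germ line by DNA methylation at control regions, and proteins such as the zinc finger factor ZFP57 keep that methylation in place after fertilisation. These genes often lie in clusters that pair protein-coding genes with long noncoding RNAs, and many of them act on growth, nutrient transfer and hormone signalling. The RNA levels of 33 mouse imprinted genes, coding and noncoding, are described here, out of 55536 annotated genes. They were a listed set, each symbol was matched to its identifier in the GENCODE M21 annotation of GRCm38, and they fall into 15 loci. The counts do not separate the parental copies, so every statement on which copy is active is textbook background.

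RNA had been sequenced from islet cells of C57B/L6 mice aged 12 weeks, in 9 libraries with 3 in each of 3 sorted subsets. Beta-enriched cells were gated as CD24 low with CD71 present, alpha-enriched cells as CD24 low without CD71, and delta-enriched cells by high CD24. The labels give no genotype or treatment that differs between the subsets, and every islet preparation spent a night in culture before it was dispersed and sorted. They also do not say whether the 3 libraries of a subset came from separate animals, so p-values measure the spread between these libraries.

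Library totals ran from 5663141 to 9529920 expected counts. Levels are given as TMM-scaled CPM, in which each count is set against the size of its library, a scale that corrects for depth but not for gene length, and levels of different genes are compared only as TPM. The hormone genes followed the labels. Ins2 reached 21226 to 28401 CPM in beta-enriched libraries, 2027 to 2772 CPM in alpha-enriched libraries and 65.3 to 390.1 CPM in delta-enriched libraries. Gcg reached 78112 CPM or more in the alpha-enriched libraries and Sst 14396 CPM or more in the delta-enriched libraries. The subsets were not pure. The pancreatic polypeptide gene Ppy stood at 30.7 to 60.5 CPM in beta-enriched, 1656 to 2409 CPM in alpha-enriched and 1476 to 2145 CPM in delta-enriched libraries, and 12 summed acinar markers reached 3240 CPM in delta replicate 3 against 316.4 CPM or less in the other delta-enriched libraries. A ribosomal RNA locus accounted for 34.4% of the counts of beta replicate 2, against 5.37% or less in the other 8 libraries. In sorted pools such as these, fewer cells of a type and less RNA per cell cannot be told apart.

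Of the 33 imprinted genes, 28 had enough counts to be tested with edgeR's quasi-likelihood test over 15896 genes, and a difference was called at a Benjamini-Hochberg adjusted p under 0.05. The 5 genes left out were almost silent. Dio3, a deiodinase that inactivates thyroid hormone, and Peg12, a paternally expressed gene of the Snrpn cluster, had 0 counts in all 9 libraries. Phlda2, a growth-restraining gene known from the placenta, had 2 counts in beta replicate 1 and 0 elsewhere. The growth-restraining noncoding RNA H19 had 0 counts in beta-enriched libraries, 4, 0 and 1 in alpha-enriched libraries and 0, 0 and 1 in delta-enriched libraries. Magel2, a regulator of endosomal protein recycling, had 0 counts in beta-enriched libraries, 2, 1 and 0 in alpha-enriched libraries and 0, 13 and 0 in delta-enriched libraries.

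Between beta-enriched and alpha-enriched libraries, 20 of the 28 tested imprinted genes differed, 10 higher and 10 lower in beta, where 26.6% of all tested genes were called, 14.8% higher and 11.9% lower. Between beta-enriched and delta-enriched libraries, 17 differed, 2 higher and 15 lower in beta, against a background of 30.6% called, 15.4% higher and 15.3% lower. Between alpha-enriched and delta-enriched libraries, 18 differed, 4 higher and 14 lower in alpha, against a background of 24.3%, 11% higher and 13.3% lower. The median size of the log2 difference over the 28 genes was 1.3, 0.77 and 0.83 in these 3 comparisons, beside 0.37, 0.42 and 0.37 over all tested genes. By fitted value, calls of 8-fold or more numbered 4, 6 and 4, beside 4.44%, 5.64% and 3.73% of all tested genes. The 4 for beta over alpha include Nespas, with 7 counts in beta and 0 in alpha. Against a floor of 3 counts over the 3 alpha-enriched libraries, that difference is at least 2.82-fold. In CPM the libraries of the compared subsets did not overlap for 20, 20 and 21 of the 28 genes, beside 45.5%, 42.6% and 36.1% of all tested genes. All 3 comparisons were called for 7 genes, Dlk1, Gnas, Grb10, Igf2r, Mest, Nespas and Nnat, beside 7.05% of all tested genes. For Nespas the beta over alpha call ended without beta replicate 2 or any 1 alpha-enriched library. A low gene could pass the filter on counts through the libraries in which it was higher, so these counts describe the 28 genes tested and not all 33. The 3 comparisons share libraries and are not independent of each other.

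In a subset-by-subset view, delta-enriched libraries held the highest mean CPM of 17 of the 28 tested genes, alpha-enriched libraries of 8 and beta-enriched libraries of 3, beside 35.9%, 30.9% and 33.2% of all tested genes. Igf2 and Igf2r were higher in beta than in both other subsets, a pattern of 8.48% of all tested genes. Another 8 genes were lower in beta than in both others, namely Usp29, Zim1, Ndn, Gnas, Peg10, Sgce, Mest and Grb10, where 7.02% of all tested genes had that pattern. A further 8 were lower in alpha than in both others, namely Dlk1, Rtl1, Rian, Mirg, Nespas, Nnat, Blcap and Peg13, against 5.42% of all tested genes. For Nespas this includes the low-count call for beta over alpha given above. Alpha was higher than both others for Airn, Gnas and Grb10, against 4.04%. Delta was higher than both others for Dlk1, Meg3, Slc22a18, Nespas, Mest, Nnat, Plagl1 and Impact, against 7.03%, and lower than both for Igf2r, against 5.61%. The 3 tested genes with no call in any comparison were Peg3, Snrpn and Cdkn1c, while 44% of all tested genes were called in at least 1.

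**Figure D1:**
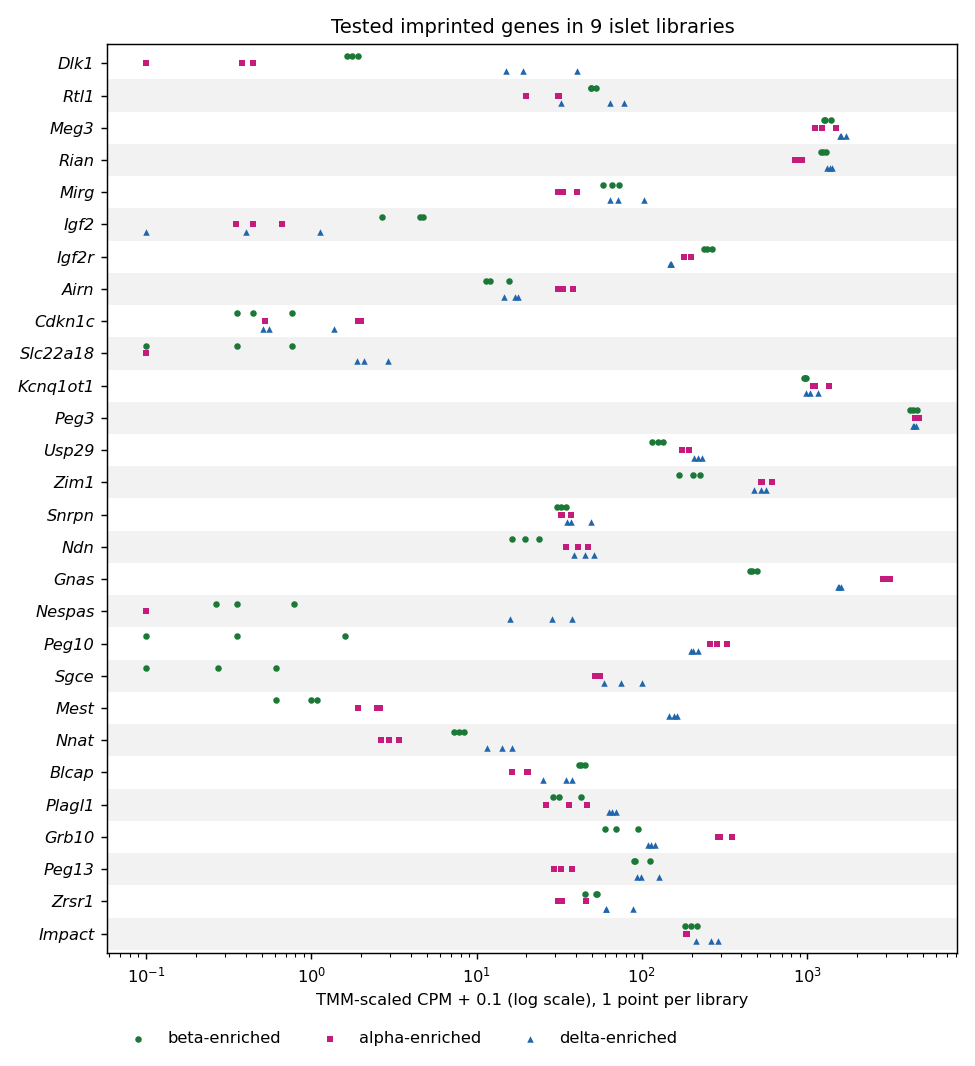
TMM-scaled CPM plus 0.1, on a log axis, of the 28 tested imprinted genes in each of the 9 libraries, with 1 point per library and genes ordered by locus. Peg10, Sgce, Mest, Dlk1 and Nespas spread widely, while the 9 points of Peg3 lie between 4215 and 4739 CPM.

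The imprinted genes together took 0.998%, 0.576% and 0.979% of all counts in beta replicates 1, 2 and 3, between 1.26% and 1.44% in alpha-enriched libraries and between 1.32% and 1.47% in delta-enriched libraries. The low value of beta replicate 2 stands in the library with the large ribosomal share. Peg3 alone held 44.8% to 46.1% of the imprinted counts in beta-enriched libraries, 34.9% to 36.8% in alpha-enriched libraries and 35.4% to 36.4% in delta-enriched libraries. On the per-length TPM scale, Rian led in beta with a mean of 473.4 ± 113.6 TPM, Gnas in alpha with 1083.7 ± 151.0 TPM and Rian in delta with 461.4 ± 90.1 TPM (SD, n = 3 each). Peg3 ranked 137, 140 and 155 of the 15896 tested genes by mean TPM in beta, alpha and delta.

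The Dlk1-Dio3 cluster on chromosome 12 expresses protein-coding genes from the paternal copy and the long noncoding RNAs Meg3, Rian and Mirg from the maternal copy. The noncoding RNAs Rian and Mirg were lower in alpha-enriched libraries than in both other subsets, and the coding gene Dlk1 was close to absent there. Rian, which hosts small nucleolar RNAs (chr12:109603940-109661716), had 1304.7, 1210.2 and 1242.4 CPM in beta-enriched libraries, 862.0, 847.0 and 930.5 CPM in alpha-enriched libraries and 1373.2, 1407.3 and 1327.3 CPM in delta-enriched libraries. In CPM every alpha-enriched library lay below every other library. As TPM they overlapped, with 447.5 TPM in alpha replicate 3, 364.8 TPM in beta replicate 2 and 361.2 TPM in delta replicate 1. The log2 fold change was 0.51 (SE 0.08, adjusted p = 9.56e-05) for beta over alpha, -0.64 (SE 0.08, adjusted p = 9.91e-06) for alpha over delta and -0.13 (SE 0.08, adjusted p = 0.248) for beta over delta. Both calls ended when TPM was fitted with limma, at limma adjusted p between 0.369 and 0.403.

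Mirg, a host of microRNAs (chr12:109729764-109749460), had 57.7, 72.8 and 65.9 CPM in beta-enriched libraries, 30.9, 40.2 and 33.2 CPM in alpha-enriched libraries and 63.9, 102.5 and 71.2 CPM in delta-enriched libraries. Here too the alpha-enriched libraries did not overlap with the others, while beta and delta did. Its log2 fold change was 0.91 (SE 0.17, adjusted p = 0.000546) for beta over alpha and -1.19 (SE 0.17, adjusted p = 4.57e-05) for alpha over delta. Meg3, the noncoding RNA at the head of the maternal transcripts (chr12:109541001-109571726), was less different. It had 1389.2, 1285.6 and 1269.6 CPM in beta-enriched libraries, 1111.2, 1231.0 and 1486.2 CPM in alpha-enriched libraries and 1574.8, 1608.2 and 1707.2 CPM in delta-enriched libraries. In CPM delta lay above both others, with log2 fold changes of -0.31 (SE 0.10, adjusted p = 0.0246) for beta over delta and -0.35 (SE 0.10, adjusted p = 0.0146) for alpha over delta. As TPM they overlapped, with 143.1 TPM in delta replicate 1, 268.8 TPM in beta replicate 3 and 219.7 TPM in alpha replicate 3. The beta over delta call ended without beta replicate 2, beta replicate 3 or delta replicate 3, with adjusted p between 0.0722 and 0.104. The alpha over delta call ended without alpha replicate 1, alpha replicate 2 or delta replicate 3, with adjusted p between 0.0661 and 0.106. Beta over alpha was not called (0.04, SE 0.10, adjusted p = 0.813).

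The sequences of microRNAs that lie inside Mirg were read because a change in the host RNA raises the question of what the host carries. Of 26 mature microRNAs in the RefSeq table (GRCm38.p6) within Mirg on the same strand, miR-453 (chr12:109735669-109735692) and miR-496a-5p (chr12:109739132-109739152) share the seed, bases 2 to 8, shown in capitals from the 5′ end. 
miR-453: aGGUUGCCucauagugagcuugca
miR-496a-5p: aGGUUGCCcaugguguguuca
Beyond the seed the letters differ. Another 6 mature microRNAs lie within Rian and 3 within Meg3 on the same strand. The gene counts measure the host RNA and are no measure of the mature microRNAs.

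Dlk1, a transmembrane relative of the Notch ligands that marks many immature and endocrine cells (chr12:109452823-109463336), had 1.67, 1.54 and 1.82 CPM in beta-enriched libraries, 0.342, 0 and 0.282 CPM in alpha-enriched libraries and 15.0, 18.9 and 40.6 CPM in delta-enriched libraries. The 3 subsets did not overlap. On the log2 scale the fold change was -6.78 (SE 0.57, adjusted p = 9.75e-08) for alpha over delta, -3.88 (SE 0.44, adjusted p = 2.48e-06) for beta over delta and 2.90 (SE 0.70, adjusted p = 0.00485) for beta over alpha. The alpha-enriched libraries held 5 Dlk1 counts in all. The highest delta value came from delta replicate 3, the library with the most acinar RNA, and without it and beta replicate 2 together the beta over delta value was -3.28 (adjusted p = 0.000634). The part of acinar RNA in the Dlk1 counts was not tested.

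Rtl1, a retrotransposon-derived gene known for its role in the placenta, had 48.8, 52.4 and 49.3 CPM in beta-enriched libraries, 19.8, 31.5 and 30.8 CPM in alpha-enriched libraries and 32.5, 64.1 and 78.4 CPM in delta-enriched libraries. Delta replicate 1 lay just above the highest alpha-enriched library. In edgeR the log2 fold change came to 0.88 (SE 0.28, adjusted p = 0.0424) for beta over alpha and -1.10 (SE 0.28, adjusted p = 0.016) for alpha over delta. The beta over alpha call ended when any 1 beta-enriched or alpha-enriched library was left out, with adjusted p between 0.0603 and 0.11. The alpha over delta call ended without delta replicate 2 (adjusted p = 0.0852). Beta over delta was not called (-0.22, SE 0.28, adjusted p = 0.614), except without delta replicate 1 (-0.50, adjusted p = 0.029).

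**Figure D2:**
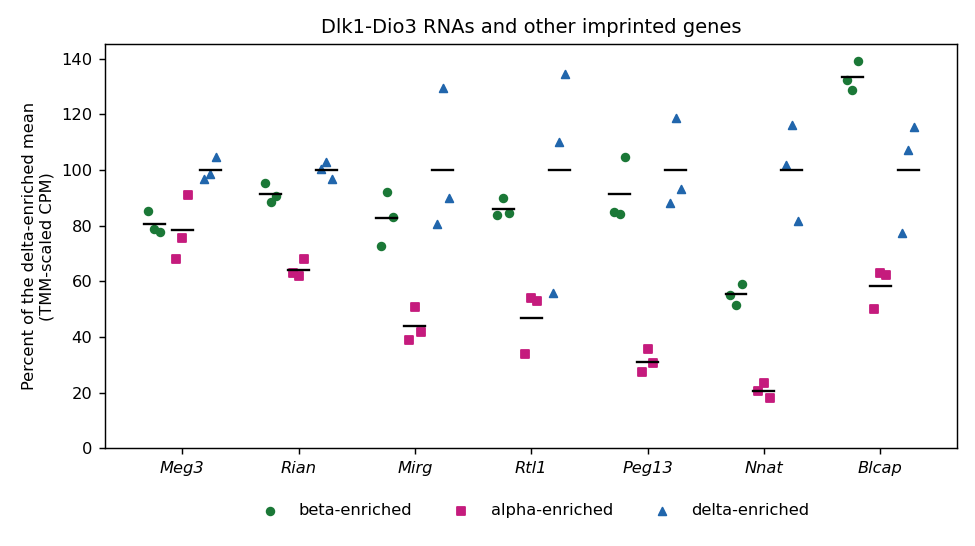
CPM of 7 imprinted genes in each library as a percentage of the gene's mean in the delta-enriched libraries, with bars at the subset means. The alpha-enriched means of all 7 genes lie below both other means, and Blcap alone has its highest mean in beta. For Meg3 the alpha mean is 1276.2 CPM and the beta mean 1314.8 CPM, a difference that was not called.

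Insulin-like growth factor 2 is the paternally expressed growth factor of the Igf2-H19 locus, and Igf2r is the maternally expressed receptor that clears it. Both were higher in beta-enriched libraries than in the other subsets, although Igf2 was rare. Igf2 (chr7:142650766-142666816) had 36, 15 and 27 counts in beta-enriched libraries, 3, 2 and 4 in alpha-enriched libraries and 0, 2 and 8 in delta-enriched libraries, with a beta mean of 3.88 ± 1.14 CPM (SD, n = 3). The fitted log2 fold change was 3.29 (SE 0.84, adjusted p = 0.00661) for beta over alpha and 3.06 (SE 0.83, adjusted p = 0.00882) for beta over delta. Without beta replicate 1 these calls ended, at adjusted p = 0.0503 and 0.0593. Without beta replicate 3 the beta over delta call ended at 0.0504, and without delta replicate 3 its value was 4.59. Another annotated gene, Gm49394, shares 16048 bases with Igf2 on the same strand and had 0 to 7 counts per library, so how their reads divide is uncertain. The alpha mean of Igf2 was 9.94% of its beta mean, beside 8.96% for Ins2, while in delta the shares were 11.4% and 0.737%.

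Igf2r (chr17:12682406-12769664) had 238.3, 247.1 and 267.0 CPM in beta-enriched libraries, 199.1, 178.9 and 197.5 CPM in alpha-enriched libraries and 148.2, 149.8 and 149.2 CPM in delta-enriched libraries. In CPM the subsets did not overlap and stood in the order beta, alpha, delta. As TPM beta and alpha overlapped, with 11.8 TPM in beta replicate 2 and 14.9 TPM in alpha replicate 3. The log2 fold change of Igf2r was 0.39 (SE 0.09, adjusted p = 0.00296) for beta over alpha, 0.75 (SE 0.09, adjusted p = 3.81e-06) for beta over delta and 0.36 (SE 0.09, adjusted p = 0.00549) for alpha over delta. Airn, the paternal antisense RNA that silences Igf2r in cis in mouse (chr17:12741311-12860136), did not follow the same order. It had 11.9, 11.3 and 15.7 CPM in beta-enriched libraries, 31.1, 33.2 and 38.0 CPM in alpha-enriched libraries and 16.9, 17.8 and 14.6 CPM in delta-enriched libraries. Alpha was the high subset for Airn, with log2 fold changes of -1.39 (SE 0.19, adjusted p = 1.84e-05) for beta over alpha and 1.05 (SE 0.18, adjusted p = 0.000328) for alpha over delta. Airn and Igf2r share 28354 bases on opposite strands. The library kit keeps strand, but the sources used here do not give the strand setting of the counting, and the sharing of reads between these genes, and between other opposite-strand pairs, was not tested.

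The Kcnq1 cluster holds maternally expressed growth restrainers and the paternal antisense RNA Kcnq1ot1, which silences them in cis. On the TPM scale the antisense RNA averaged 5.29, 6.89 and 5.2 TPM in beta, alpha and delta. These means ranked 6644, 5599 and 6412 of the 15896 tested genes. The tested maternal genes Cdkn1c and Slc22a18 averaged 0.823 TPM or less in each subset. Kcnq1ot1 (chr7:143203458-143296549) had 982.7, 972.2 and 957.6 CPM in beta-enriched libraries, 1110.0, 1087.0 and 1360.4 CPM in alpha-enriched libraries and 981.7, 1038.5 and 1168.1 CPM in delta-enriched libraries. It was lower in beta than in alpha, by -0.29 on the log2 scale (SE 0.10, adjusted p = 0.0363), a call that ended without any 1 beta-enriched library or alpha replicate 3, with adjusted p between 0.0855 and 0.235. Kcnq1, which shares 93092 bases with it on the other strand, had 0 to 3 counts per library.

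Cdkn1c, the cell cycle inhibitor p57, had 2, 2 and 4 counts in beta-enriched libraries, 16, 15 and 3 in alpha-enriched libraries and 3, 3 and 10 in delta-enriched libraries. The libraries of each pair of subsets overlapped and no comparison was called, with adjusted p of 0.18 for beta over alpha. Slc22a18, a member of the organic cation transporter family, had 2, 0 and 4 counts in beta-enriched libraries, 0 in each alpha-enriched library and 13, 13 and 22 in delta-enriched libraries. Against a floor of 3 counts over the 3 alpha-enriched libraries, it was at least 17.5-fold lower in alpha than in delta (adjusted p = 0.00192). For beta over delta its log2 fold change was -2.78 (SE 0.95, adjusted p = 0.0372), and that call ended in 8 of the 9 fits that left out a single library, the exception being the fit without delta replicate 1. The value was -3.80 without beta replicate 3.

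Peg3, a paternally expressed zinc finger gene known for its effect on growth and behaviour, was the imprinted gene with the most counts and did not differ between subsets beyond its spread. Peg3 (chr7:6703892-6730431) had 4625.7, 4214.6 and 4379.8 CPM in beta-enriched libraries, 4705.7, 4523.4 and 4738.5 CPM in alpha-enriched libraries and 4347.8, 4585.6 and 4427.1 CPM in delta-enriched libraries. The log2 fold change was -0.08 (SE 0.08, adjusted p = 0.536) for beta over alpha, -0.02 (SE 0.08, adjusted p = 0.914) for beta over delta and 0.06 (SE 0.08, adjusted p = 0.62) for alpha over delta.

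Its neighbours in the cluster did differ. Usp29, a ubiquitin protease gene that starts 147 bases from Peg3 on the opposite strand (chr7:6730578-6967219), had 115.2, 125.4 and 134.3 CPM in beta-enriched libraries, 174.2, 192.3 and 192.4 CPM in alpha-enriched libraries and 218.0, 229.8 and 206.4 CPM in delta-enriched libraries. In CPM beta lay below both others, with log2 fold changes of -0.58 (SE 0.09, adjusted p = 0.000158) for beta over alpha and -0.80 (SE 0.09, adjusted p = 3.75e-06) for beta over delta. As TPM they overlapped, with 27.2 TPM in beta replicate 3, 24.9 TPM in alpha replicate 1 and 25.9 TPM in delta replicate 1. Zim1, a maternally expressed zinc finger gene (chr7:6671269-6696450), had 203.0, 168.6 and 225.1 CPM in beta-enriched libraries, 530.8, 528.5 and 611.3 CPM in alpha-enriched libraries and 474.7, 565.5 and 527.6 CPM in delta-enriched libraries. Every beta-enriched library was below every other library, and the log2 fold change was -1.48 (SE 0.11, adjusted p = 1.57e-08) for beta over alpha and -1.39 (SE 0.11, adjusted p = 3.02e-08) for beta over delta. Alpha and delta overlapped for Zim1 (0.09, SE 0.11, adjusted p = 0.599).

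The stretch of 163 bases between the RefSeq starts of Peg3 and Usp29 is shown because the genes are read outwards from it and differed in their pattern. It reaches past the gene starts given above, so it takes in the first annotated bases of both genes. It is read on the plus strand at chr7:6730420-6730582 from the RefSeq promoter table (GRCm38.p6), with its 5 CpG sites, the letters that carry methylation, in capitals.
Peg3-Usp29 spacer: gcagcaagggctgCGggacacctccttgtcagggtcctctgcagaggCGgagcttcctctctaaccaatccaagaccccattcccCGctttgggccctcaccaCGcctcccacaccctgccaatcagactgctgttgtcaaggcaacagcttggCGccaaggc
No methylation was measured, and the letters say nothing on the state of these sites in the sorted cells.

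The Snrpn cluster, the mouse counterpart of the Prader-Willi region of human, is expressed from the paternal copy. Ndn was lower in beta-enriched libraries than in both other subsets, and Snrpn did not differ. Ndn, necdin, a growth suppressor of neurons (chr7:62346569-62350262), had 19.5, 23.6 and 16.2 CPM in beta-enriched libraries, 47.3, 40.9 and 34.7 CPM in alpha-enriched libraries and 45.3, 51 and 38.9 CPM in delta-enriched libraries. The beta-enriched libraries did not overlap with the others, with log2 fold changes of -1.05 (SE 0.18, adjusted p = 0.000188) for beta over alpha and -1.19 (SE 0.18, adjusted p = 4.88e-05) for beta over delta. Snrpn, which encodes the splicing protein SmN, averaged 32.5 ± 2.14 CPM in beta-enriched, 34.2 ± 2.66 CPM in alpha-enriched and 40.6 ± 7.48 CPM in delta-enriched libraries (SD, n = 3 each), with adjusted p of 0.137 or more. Snrpn shares 22570 bases with the annotated gene Gm38393 on the same strand, which had 127 to 371 counts per library and was itself lower in beta than in alpha (-0.68, SE 0.17, adjusted p = 0.00476). How the reads divide between these genes is uncertain.

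Gnas encodes the stimulatory G protein alpha subunit, which couples receptors to cyclic AMP, together with alternative products that are imprinted in different directions. It was the largest difference in absolute CPM among the imprinted genes. Gnas (chr2:174284320-174346744) had 464.7, 498.3 and 451.5 CPM in beta-enriched libraries, 2950.4, 3181.1 and 2873.3 CPM in alpha-enriched libraries and 1535.3, 1566.9 and 1603.2 CPM in delta-enriched libraries. The subsets did not overlap and stood in the order alpha, delta, beta. On the log2 scale the fold change was -2.67 (SE 0.09, adjusted p = 6.6e-13) for beta over alpha, -1.73 (SE 0.08, adjusted p = 5.36e-11) for beta over delta and 0.94 (SE 0.08, adjusted p = 1.35e-07) for alpha over delta. As TPM, its mean ranked 209 in beta, 88 in alpha and 129 in delta among the 15896 tested genes. The beta mean of Gnas was 15.7% of its alpha mean, beside 0.44% for Gcg, and the delta mean was 52.3% of the alpha mean, beside 4.9% for Gcg. Gm20721, an annotated gene that shares 16394 bases with Gnas on the opposite strand, had 35 to 307 counts per library and averaged 6.21 ± 1.56 CPM in beta, 30.7 ± 8.05 CPM in alpha and 13 ± 5.22 CPM in delta (SD, n = 3 each). It was called in the same directions as Gnas, at -2.32 (SE 0.30, adjusted p = 1.47e-05) for beta over alpha, -1.08 (SE 0.31, adjusted p = 0.0125) for beta over delta and 1.24 (SE 0.28, adjusted p = 0.00317) for alpha over delta, and how reads divide between them was not tested. A gene count sums the products of the locus, so their shares were not analysed here.

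Nespas, the paternal antisense RNA at the upstream end of Gnas (chr2:174281237-174295436), had another pattern. It had 2, 4 and 1 counts in beta-enriched libraries, 0 in each alpha-enriched library and 116, 249 and 221 in delta-enriched libraries, the last a mean of 27.3 ± 10.9 CPM (SD, n = 3). Delta was far above both others. Nespas was at least 214-fold lower in alpha than in delta, against a floor of 3 counts over the 3 alpha-enriched libraries (adjusted p = 3.96e-08), and its log2 fold change for beta over delta was -6.19 (SE 0.50, adjusted p = 1.41e-07). That value was -6.88 without beta replicate 2. Beta was at least 2.82-fold higher than alpha (adjusted p = 0.0307), but the call ended without beta replicate 2 or any 1 alpha-enriched library, with adjusted p between 0.0709 and 0.121. Nespas and Gnas share 11117 bases on opposite strands, and the alpha-enriched libraries, in which Gnas was highest, held 0 Nespas counts.

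**Figure D3:**
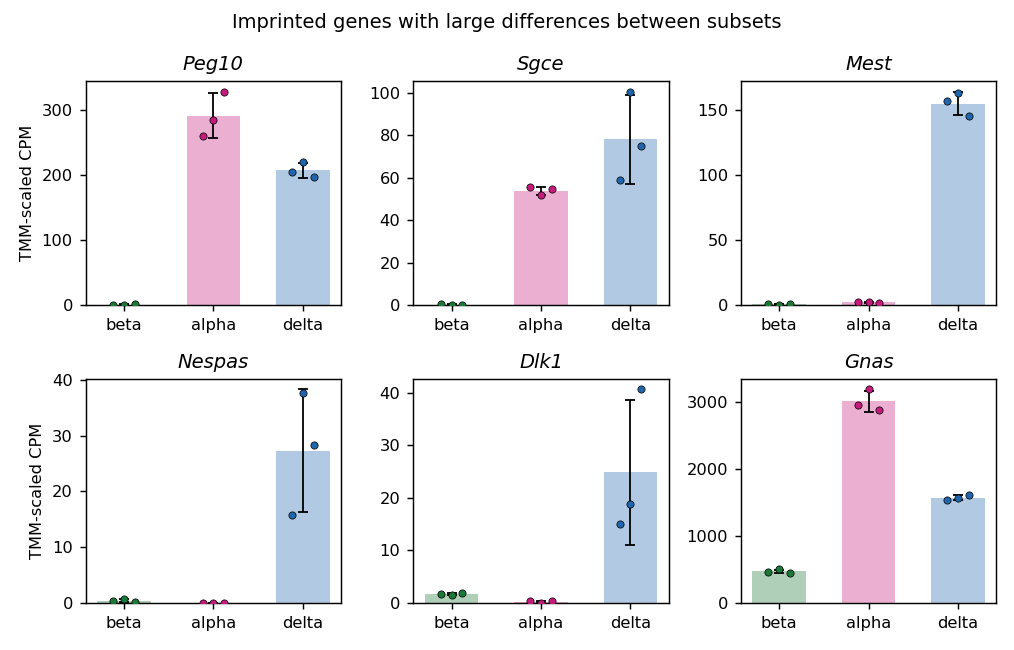
TMM-scaled CPM of 6 imprinted genes, with bars at the mean, error bars of 1 SD and 1 point for each of 3 libraries per subset. Peg10 and Sgce are near 0 in beta, Mest, Nespas and Dlk1 stand high in delta, and Gnas is highest in alpha at 2873 to 3181 CPM.

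Peg10 and Sgce are neighbouring paternal genes on chromosome 6 that start 99 bases apart on opposite strands. Both were near 0 in beta-enriched libraries and well expressed in the other subsets. Peg10, a retrotransposon-derived gene needed in the placenta (chr6:4747306-4760517), had 2, 0 and 9 counts in beta-enriched libraries, against 2281, 2261 and 2321 counts in alpha-enriched libraries and 1499, 1449 and 1533 counts in delta-enriched libraries. In CPM this was 0.257, 0 and 1.49 in beta, 259.9, 284.7 and 327.5 in alpha and 204.7, 219.1 and 197.0 in delta. In edgeR the log2 fold change came to -8.97 (SE 0.36, adjusted p = 7.78e-09) for beta over alpha and -8.48 (SE 0.36, adjusted p = 1.12e-08) for beta over delta. Most of the beta counts came from beta replicate 3, and without it the values were -10.79 and -10.30. Alpha and delta did not overlap, at a log2 fold change of 0.49 (SE 0.20), which edgeR did not call (adjusted p = 0.101). DESeq2 called it at adjusted p = 0.000216, and edgeR did so without beta replicate 2 (0.0274) or beta replicate 3 (0.00628).

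Sgce, epsilon-sarcoglycan, a membrane glycoprotein known from myoclonus-dystonia of human (chr6:4674350-4747207), had 4, 1 and 0 counts in beta-enriched libraries. It had 0.514, 0.171 and 0 CPM in beta-enriched libraries, 55.5, 51.9 and 54.7 CPM in alpha-enriched libraries and 59.0, 100.6 and 74.9 CPM in delta-enriched libraries. Both other subsets lay far above beta. The fitted log2 fold change was -7.64 (SE 0.37, adjusted p = 1.71e-10) for beta over alpha and -8.17 (SE 0.36, adjusted p = 5.18e-11) for beta over delta. Without beta replicate 1 these values were -9.06 and -9.58. For alpha over delta it was -0.53 (SE 0.19, adjusted p = 0.052), and DESeq2 called it at adjusted p = 0.0287, as did edgeR without beta replicate 1, beta replicate 3 or delta replicate 1, at 0.0421, 0.0395 and 0.00499. The delta means of Peg10 and Sgce were 71.2% and 145% of their alpha means, beside 4.9% for Gcg. Ppy moved with both genes, low in beta and high in alpha and delta as given above, and its part in these values was not tested.

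Genes around the pair were then read within 500 kb of the Peg10 start, a window chosen after its values were seen. Of 10 tested genes there, Peg10 and Sgce included, 4, 7 and 2 were called for beta over alpha, beta over delta and alpha over delta. The shares over all tested genes were 26.6%, 30.6% and 24.3%. Peg10, Sgce and the collagen gene Col1a2 were called lower in beta by 8-fold or more, against alpha and against delta. Over all tested genes, calls of 8-fold or more in either direction made up 4.44% and 5.64%. Col1a2 starts at -242.5 kb from the Peg10 start and averaged 0.0999 ± 0.0892 CPM in beta, 13.1 ± 6.61 CPM in alpha and 1.11 ± 0.992 CPM in delta (SD, n = 3 each). Its log2 fold change was -6.78 (adjusted p = 4.78e-05) for beta over alpha and -3.27 (adjusted p = 0.0384) for beta over delta. Col1a2 is also among the mesenchymal markers read below, and the part of mesenchymal cells in its values was not tested. Casd1, a sialic acid acetyltransferase gene between Col1a2 and Sgce, was not called for beta over alpha (-0.34, adjusted p = 0.0597) and was lower in beta than in delta (-0.58, adjusted p = 0.00198). Ppp1r9a, a neuronal scaffold of protein phosphatase 1 on the far side of Peg10, was lower in beta by -0.66 against alpha (adjusted p = 5.39e-05) and by -1.10 against delta (adjusted p = 1.22e-07).

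**Figure D4:**
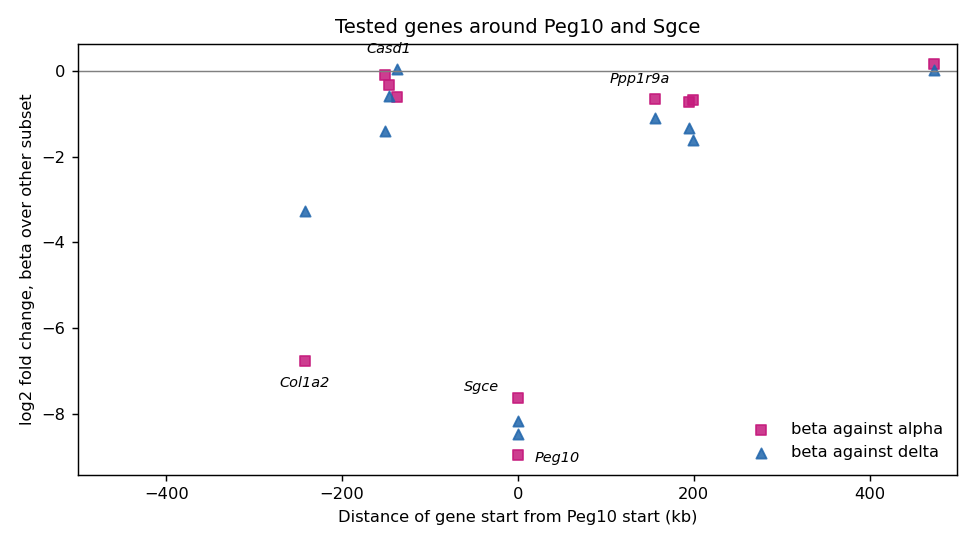
The log2 fold change of beta over alpha (squares) and beta over delta (triangles) of the 10 tested genes that start within 500 kb of the Peg10 start, by distance in kb, with 5 genes named. Peg10 and Sgce stand at -7.64 to -8.97 at the centre, and Casd1 and Ppp1r9a lie between 0 and -1.10. The mesenchymal marker Col1a2 lies at -6.78 for beta over alpha and -3.27 for beta over delta.

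Mest, a paternally expressed hydrolase-like gene known from mesoderm and adipose tissue (chr6:30723547-30748465), was expressed mainly in the delta-enriched libraries. It had 0.899, 0.514 and 0.990 CPM in beta-enriched libraries, 2.39, 2.52 and 1.83 CPM in alpha-enriched libraries and 157.3, 163.0 and 145.2 CPM in delta-enriched libraries. The subsets did not overlap. Its log2 fold change was -7.55 (SE 0.20, adjusted p = 6.54e-14) for beta over delta, -6.09 (SE 0.17, adjusted p = 4.95e-13) for alpha over delta and -1.46 (SE 0.30, adjusted p = 0.00112) for beta over alpha. The alpha mean of Mest was 1.45% of its delta mean, beside 0.219% for Sst, and the beta mean was 0.516%, beside 0.00911% for Sst.

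Since Mest is known from mesenchymal cells, 8 mesenchymal markers were read beside it. Their summed level was 1.16 to 1.28 CPM in beta-enriched, 13 to 51.8 CPM in alpha-enriched and 2.87 to 8.22 CPM in delta-enriched libraries. They were highest in alpha and Mest was highest in delta, and their part in the Mest counts was not tested. In the delta-enriched libraries 3 of the 8 were detected, and Col1a1, Col3a1, Pdgfrb, Dcn and Lum had 0 counts. Acinar markers summed to 28.2 to 81.1 CPM in beta, 70.3 to 614.6 CPM in alpha and 211.2 to 3240 CPM in delta, and Mest was lowest among the delta-enriched libraries in replicate 3, where they were highest. Schwann cell markers summed to 5.94 to 11.5 CPM in beta, 11.1 to 16.4 CPM in alpha and 15.2 to 29.8 CPM in delta, and their part was not tested.

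The 250 bases before a RefSeq start of Mest are shown because this was the delta-high gene with the smallest adjusted p. The table holds 3 windows for Mest. The stretch belongs to the middle one and lies inside the annotated gene, since a longer transcript starts upstream of it. It is read on the plus strand at chr6:30737800-30738049 from the RefSeq promoter table (GRCm38.p6), with capitals on each match to the hexamer TGCCGC or its reverse complement GCGGCA, the core of the ZFP57 motif.
Mest upstream: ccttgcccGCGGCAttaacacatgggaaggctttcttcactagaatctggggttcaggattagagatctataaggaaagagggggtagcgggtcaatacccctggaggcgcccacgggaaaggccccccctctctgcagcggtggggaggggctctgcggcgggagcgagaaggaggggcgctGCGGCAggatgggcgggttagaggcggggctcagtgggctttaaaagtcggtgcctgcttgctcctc
The hexamer occurs 2 times, and the stretch holds 14 CpG sites. The window of the upstream start (chr6:30733256-30733555) holds 0 hexamers. In windows of 300 bases around a start, 250 before and 50 after, it occurred in 9 of the 38 windows of imprinted genes (23.7%) and in 11.6% of all 32851 windows. The median number of CpG sites was 12.5 in windows of imprinted genes and 7 in all windows. A match of letters is a description and not a binding site.

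Mest also carries miR-335 in an intron, at chr6:30741314-30741336 for the 5p arm and chr6:30741354-30741375 for the 3p arm, and the arms are shown because the host RNA differed so widely. Capitals mark the seed, bases 2 to 8.
miR-335-5p: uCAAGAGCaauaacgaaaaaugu
miR-335-3p: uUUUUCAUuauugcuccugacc
The arms have different seeds, and no other mature microRNA within the imprinted genes shares either of them. Neither arm was measured here.

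Nnat, neuronatin, a small endoplasmic reticulum protein of neurons and endocrine cells, lies within the gene Blcap on the opposite strand. Both were lower in alpha-enriched libraries than in the other subsets. Nnat (chr2:157560078-157562522) had 7.70, 7.20 and 8.25 CPM in beta-enriched libraries, 2.85, 3.27 and 2.54 CPM in alpha-enriched libraries and 14.2, 16.2 and 11.4 CPM in delta-enriched libraries. The subsets did not overlap, with log2 fold changes of 1.41 (SE 0.29, adjusted p = 0.00128) for beta over alpha, -0.85 (SE 0.27, adjusted p = 0.0221) for beta over delta and -2.26 (SE 0.29, adjusted p = 1.16e-05) for alpha over delta. The beta over delta call ended without any 1 beta-enriched library, with adjusted p between 0.058 and 0.0816, and without delta replicate 2. Blcap, a gene known as reduced in human bladder cancer (chr2:157556362-157571274), had 43.0, 41.8 and 45.2 CPM in beta-enriched libraries, 16.2, 20.4 and 20.2 CPM in alpha-enriched libraries and 25.1, 34.8 and 37.5 CPM in delta-enriched libraries. Beta was highest for Blcap, with a log2 fold change of 1.20 (SE 0.17, adjusted p = 4.09e-05) over alpha and 0.42 (SE 0.17, adjusted p = 0.0725) over delta, and alpha over delta stood at -0.78 (SE 0.17, adjusted p = 0.00273). Without delta replicate 3 the difference of beta from delta was called, at 0.54 (adjusted p = 0.035).

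Grb10, an adaptor protein that damps insulin receptor signalling and whose imprint depends on tissue, was highest in alpha-enriched libraries. Grb10 (chr11:11930508-12038683) had 94.1, 59.8 and 70.1 CPM in beta-enriched libraries, 350.0, 298.3 and 289.2 CPM in alpha-enriched libraries and 108.6, 112.8 and 120.0 CPM in delta-enriched libraries. In CPM the subsets did not overlap, while as TPM beta replicate 1 (10.1 TPM) lay above delta replicate 1 (8.33 TPM). The log2 fold change was -2.06 (SE 0.14, adjusted p = 8.41e-09) for beta over alpha, 1.46 (SE 0.14, adjusted p = 4.73e-07) for alpha over delta and -0.60 (SE 0.14, adjusted p = 0.00271) for beta over delta. The beta over delta call ended when beta replicate 2 and delta replicate 3 were both left out (-0.44, adjusted p = 0.0597). Mesenchymal markers were also highest in alpha, at 51.8 CPM in alpha replicate 2, while Grb10 was highest in alpha replicate 1, where they summed to 13 CPM. The alpha-high genes Grb10, Gnas and Airn were read beside that list, and its part in their values was not tested.

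Peg13, a paternally expressed noncoding RNA inside an intron of Trappc9 (chr15:72805600-72810324), had 90.4, 89.6 and 111.4 CPM in beta-enriched libraries, 29.2, 37.9 and 32.5 CPM in alpha-enriched libraries and 93.8, 126.3 and 99.1 CPM in delta-enriched libraries. Alpha lay below both others, with log2 fold changes of 1.55 (SE 0.14, adjusted p = 2.45e-07) for beta over alpha and -1.68 (SE 0.14, adjusted p = 1.1e-07) for alpha over delta. Beta and delta overlapped (-0.13, SE 0.14, adjusted p = 0.523). The host Trappc9, a trafficking factor read in the same direction, was not called, at 0.29 (SE 0.15, adjusted p = 0.189) for beta over alpha and -0.31 (SE 0.15, adjusted p = 0.161) for alpha over delta. Unspliced host RNA covers Peg13, so reads may be shared.

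The remaining genes differed by less. Plagl1, a zinc finger gene whose human counterpart is known from transient neonatal diabetes (chr10:13060504-13131694), had 31.3, 29.1 and 42.6 CPM in beta-enriched libraries, 36.0, 26.2 and 46.3 CPM in alpha-enriched libraries and 63.2, 69.6 and 66.0 CPM in delta-enriched libraries. In CPM delta lay above every other library, with log2 fold changes of -0.95 (SE 0.19, adjusted p = 0.000752) for beta over delta and -0.88 (SE 0.18, adjusted p = 0.00188) for alpha over delta. As TPM they overlapped, with 4.7 TPM in delta replicate 1, 8.13 TPM in beta replicate 3 and 8.31 TPM in alpha replicate 3. Both calls ended when TPM was fitted with limma, at limma adjusted p between 0.359 and 0.434. Impact, a regulator of the amino acid stress kinase GCN2, averaged 198.7 ± 16.4 CPM in beta-enriched, 185.4 ± 1.17 CPM in alpha-enriched and 253.7 ± 38.0 CPM in delta-enriched libraries (SD, n = 3 each). It was lower in beta than in delta by -0.35 (SE 0.11, adjusted p = 0.0185) and lower in alpha than in delta by -0.45 (SE 0.11, adjusted p = 0.00461), and the beta call ended without beta replicate 2 or 3 or delta replicate 1 or 3, with adjusted p between 0.0581 and 0.109. Zrsr1, a splicing factor retrogene inside Commd1 on the opposite strand (chr11:22972005-22976496), averaged 50.4 ± 4.52 CPM in beta-enriched, 36.5 ± 8.21 CPM in alpha-enriched and 69.4 ± 15.9 CPM in delta-enriched libraries (SD, n = 3 each). Alpha over delta was called for Zrsr1, at -0.92 (SE 0.17, adjusted p = 0.000765), while beta over alpha stood at 0.46 (adjusted p = 0.062) and beta over delta at -0.46 (adjusted p = 0.0544). Beta over alpha was called without alpha replicate 1 (0.0165) or delta replicate 1 (0.0207), and beta over delta without alpha replicate 1 (0.0429), delta replicate 2 (0.0342) or delta replicate 3 (0.0414), all as adjusted p. The DESeq2 fit, upper-quartile scaling and the fit without ribosomal genes also called beta over delta, at 0.0494, 0.0283 and 0.0499, and the fit with no filter on low counts called both, at 0.0159 for beta over alpha and 0.0128 for beta over delta. Commd1 was not called in any of the 3 comparisons. A second annotated gene, Gm28048, spans the same 4492 bases of Zrsr1 on the opposite strand. It had 124, 69 and 17 counts in beta-enriched libraries, 98, 106 and 62 in alpha-enriched libraries and 0 in each delta-enriched library, where Zrsr1 was highest. Gm28048 was called higher in beta than in delta (adjusted p = 3.55e-05) and in alpha than in delta (adjusted p = 3.94e-05), and how reads divide between it and Zrsr1 was not tested.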

How the data were processed

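Per the labels' protocols, total RNA was copied from random primers into strand-specific paired-end libraries that were depleted of ribosomal RNA. The submitters' processing notes name the build GRCm38.p6, the aligner STAR 2.5.2b, the counter RSEM and, under R 3.5.1, DESeq2 1.22.1. The RSEM version and strand setting are not given in the sources used here. The authors deposited RSEM expected counts and TPM values for 55536 genes in each of 9 libraries, per the file headers. The deposited FPKM values and normalised table were not used.

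Here, expected counts were rounded and filtered with filterByExpr by subset, leaving 15896 genes. They were TMM-scaled and fitted in edgeR 4.0.16 (R 4.3.3) by the robust quasi-likelihood method over all 9 libraries with 1 coefficient per subset. The common dispersion gave a biological coefficient of variation of 0.212, and 6 residual degrees of freedom remained. Tests were 2-sided with Benjamini-Hochberg adjustment at 0.05 over all tested genes, and every adjusted p is from edgeR unless DESeq2 1.42.0 is named. Errors are SD over 3 libraries or SE of a log2 fold change, and library totals of 5663141 to 9529920 counts set the precision.

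The naming rule covered every listed imprinted gene, host and overlapping genes that bear on a count, the hormone genes, and in each further list the 4 called genes with the smallest p per comparison. The members and lists were chosen with earlier results of these data known. Genes within 500 kb of a member and the microRNA and promoter sequences were chosen after their values were seen. Alternatives were DESeq2, other scalings, other filters, a replicate block, leaving out libraries, leaving out ribosomal genes, and limma 3.58.1 on log2(TPM + 1) and log2(TPM + 0.1).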

Additional observations from a re-analysis of the deposited data

How the results depend on the processing

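In the comparisons of beta with alpha, beta with delta and alpha with delta, 10 of 20, 9 of 17 and 10 of 18 imprinted gene calls held in all 19 alternatives, and no direction of a called gene was reversed. The calls lost in some alternative for beta over alpha were Dlk1, Igf2, Igf2r, Kcnq1ot1, Mest, Mirg, Nespas, Rian, Rtl1 and Usp29. For beta over delta they were Grb10, Igf2, Impact, Meg3, Nnat, Plagl1, Slc22a18 and Usp29. For alpha over delta they were Blcap, Igf2r, Impact, Meg3, Plagl1, Rian, Rtl1 and Zrsr1. Those of Blcap, Dlk1, Igf2r, Mest, Mirg, Plagl1, Rian, Usp29 and Zrsr1 ended only in limma fits on TPM. The same holds for Impact for alpha over delta. limma on log2(TPM + 1) gave fewer calls: 1765, 2446 and 1807 genes and 11, 11 and 10 imprinted genes, against 4231, 4869 and 3868 genes and 20, 17 and 18 imprinted genes with edgeR on counts. With log2(TPM + 0.1) there were 1819, 2480 and 1782 genes and 12, 11 and 10 imprinted genes. TPM carries no TMM scaling, and its median log2 shift from the edgeR values reached 0.24 for alpha over delta, and the cause of the lower counts was not tested. Of the imprinted genes called with log2(TPM + 1), 4 were higher and 7 lower in beta than in alpha. Leaving out 1 library gave 3210 to 4997, 3909 to 5260 and 3090 to 4334 genes and 17 to 21, 12 to 17 and 17 to 20 imprinted genes. Libraries with the same replicate number deviated from their subset means with correlations of 0.001 to 0.112, all positive. Those with different numbers gave -0.102 to 0.021. The labels do not say whether a number marks a shared preparation, and the main fit took no pairs. A fit with the replicate number as a block called 4625, 5241 and 4294 genes and 21, 19 and 19 imprinted genes, adding Zrsr1 for beta over alpha (adjusted p = 0.00931) and for beta over delta (0.0129), Blcap for beta over delta and Usp29 for alpha over delta. For genes near 0 counts in a subset, such as Nespas, Slc22a18 and Igf2, depth limits the size of the fold change.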

Other observations

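Beyond the 33 genes, a second list held 40 other imprinted genes, of which 25 were tested. Beta-enriched and alpha-enriched libraries differed in 16 of them, 7 higher and 9 lower in beta, beta and delta in 14, 6 higher and 8 lower in beta, and alpha and delta in 8, 3 higher and 5 lower in alpha, beside backgrounds of 26.6%, 30.6% and 24.3% of all tested genes. Rasgrf1, an exchange factor for Ras, had 270.6, 258.2 and 268.2 CPM in beta-enriched libraries, 22.8, 20.0 and 25.5 CPM in alpha-enriched libraries and 137.3, 183.4 and 172.2 CPM in delta-enriched libraries. Alpha lay below both others, with log2 fold changes of 3.54 (SE 0.13, adjusted p = 2.71e-12) for beta over alpha and -2.85 (adjusted p = 3.68e-11) for alpha over delta. Inpp5f, a phosphoinositide phosphatase, was also lower in alpha, by 1.13 for beta over alpha and -0.94 for alpha over delta. Slc38a4, an amino acid transporter, was low in delta instead, at 283.3 ± 16.5 CPM in beta, 489.7 ± 58.7 CPM in alpha and 54.3 ± 15.2 CPM in delta (SD, n = 3 each). Nap1l5, a nucleosome assembly relative, was higher in alpha than in delta by 2.20 on the log2 scale. Cd81, a tetraspanin, and Zdbf2, a paternally expressed gene, were lower in beta than in alpha, by -1.48 and -1.09, and lower in beta than in delta, by -1.59 and -0.91. Ppp1r9a has been given with the neighbours of Peg10.

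Of 20 genes that set, keep or remove imprints, 15 were tested, and 3, 3 and 5 were called in the same 3 comparisons, which is 20%, 20% and 33.3% of the 15 beside the backgrounds of 26.6%, 30.6% and 24.3%. Tet3, which oxidises methylated cytosine, had 109.7, 103.3 and 115.2 CPM in beta-enriched libraries, 37.7, 32.7 and 37.4 CPM in alpha-enriched libraries and 74.3, 122.9 and 110.1 CPM in delta-enriched libraries, and was lower in alpha than in both others (1.61 for beta over alpha, adjusted p = 4.3e-07, and -1.51 for alpha over delta, adjusted p = 1.04e-06). Tet1 was lower in beta by -0.67 against alpha and -0.69 against delta. Dnmt3b, a methyltransferase, was lower in delta, by 1.32 for beta over delta and 1.44 for alpha over delta, and the beta call ended without beta replicate 3 (adjusted p = 0.0672). Tet2 was called for beta over alpha at the threshold (0.29, adjusted p = 0.05 after rounding) and lost the call in most alternatives. The other named differences were 0.30 for Dnmt3a for beta over delta, 0.29 for Dnmt3a, 0.43 for Zfp445 and 0.30 for Atrx for alpha over delta. The methyltransferase Dnmt1 averaged 42.7 ± 6.57 CPM in beta, 43.6 ± 4.81 CPM in alpha and 39.2 ± 5.05 CPM in delta (SD, n = 3 each), with no call.

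Within 500 kb of Meg3, a window chosen after its values were seen, 8 genes were tested. For beta over alpha 6 were called, Dlk1, Rtl1, Rian, Gm26945, Gm37899 and Mirg, each higher in beta, and for alpha over delta 7 were called, the same ones and Meg3, each lower in alpha. For beta over delta 2 were called. The shares over all tested genes were 26.6% for beta over alpha, 30.6% for beta over delta and 24.3% for alpha over delta, here and in the windows that follow. Gm26945 overlaps Rian by 2011 bases on the same strand. Within 500 kb of Gnas, 11 genes were tested, among them Gnas itself, Nespas and Gm20721, which both overlap Gnas. All 11 were called for beta over alpha, 9 lower and 2 higher in beta, while 6 were called for beta over delta and 9 for alpha over delta. The 2 higher in beta were Npepl1 and Nespas, and Nespas had 7 counts in beta and 0 in alpha. Those lower in beta included Ctsz (8.24 CPM in beta and 87.8 CPM in alpha) and Edn3 (0.809 CPM in beta and 89.1 CPM in alpha). Of the tested genes within 500 kb of Mest, Cep41 (-2.22, adjusted p = 3.75e-06) and Copg2 (-0.61, adjusted p = 0.00377) were called lower in beta than in delta.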
